A study of Mus musculus with 2 samples.

Results

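Integrins and laminins were followed in messenger RNA from 2 lines of mouse embryonic fibroblasts (MEFs), the connective tissue cells that grow out of a dissociated embryo. Members were all entries of the deposited expression table whose gene symbol names an integrin alpha or beta subunit or a laminin alpha, beta or gamma chain, whatever status the entry had. This gave 37 of the 29126 entries of the table. The 36 described here are 26 for integrins and 10 for laminins, under 34 different symbols because Itgae has 3 entries at one locus. They lie on 14 chromosomes and none is on X or Y.

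Each line, Dnmt1+/+ and Dnmt1-/-, gave 1 library. The cells called Dnmt1-/- carry a hypomorphic allele of Dnmt1, the maintenance DNA methyltransferase, on both chromosomes. The cells called Dnmt1+/+ have the normal gene, and both lines lack p53 (Trp53). The strain was given as unknown, and whether a line is a single clone is not given in the sources used here. With 1 library of each genotype there is no replicate, so no test, error or p-value is given here for any difference. Genotype cannot be told apart from any other difference between the lines. Corrected p-values of the program Cuffdiff, by which the study chose its list of upregulated genes, were not used.

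Integrins are receptors of the cell surface made of 1 alpha and 1 beta subunit. They bind matrix proteins outside the cell and, through talin, kindlin and other adaptors, the actin cytoskeleton inside it. Laminins are secreted trimers of 1 alpha, 1 beta and 1 gamma chain that form the basal network of basement membranes. The alpha chain carries the main sites at which a laminin is bound by integrins. In fibroblasts integrins are known for attachment to fibronectin and collagen, and laminins are better known as products of epithelia, endothelia and muscle.

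Levels are given as RPKM, the reads of an entry scaled by the length of its transcript and by the number of reads mapped in the library, so that levels of different genes are per length. A change is the difference of log2(RPKM + 0.1), Dnmt1-/- minus Dnmt1+/+, and this scale makes changes of weakly expressed genes look smaller than they are. A gene is called higher or lower where this difference passed 2-fold, and it was compared only if Cuffdiff gave it the status OK and it reached 1 RPKM in at least 1 library. Over the 11244 genes that met this, the median change was -0.14 and the middle 50% lay between -0.56 and 0.27.

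Both libraries matched their labels at Dnmt1, with 65.2 RPKM in Dnmt1+/+ and 14.5 in Dnmt1-/-. They also stood apart at the sex chromosomes. Xist, made by an inactive X, had 0.00648 and 37.0 RPKM, while the Y-linked Ddx3y, Eif2s3y and Kdm5d had 13.9, 18.8 and 5.90 RPKM in Dnmt1+/+ and were listed at 0 in Dnmt1-/-. The part of this difference between the lines in the results below was not tested. Of 10 fibroblast markers, 9 reached 1 RPKM in Dnmt1+/+ and 8 in Dnmt1-/-. Of the 9 compared, Pdgfra was more than 2-fold higher in Dnmt1-/-, with 6.95 RPKM in Dnmt1+/+ and 18.7 in Dnmt1-/-. Thy1, with 4.84 and 0.129 RPKM, and Col1a2, with 1241 and 476, were more than 2-fold lower, and the other 6 stayed within 2-fold. Each library is bulk RNA, so a smaller number of cells of a kind cannot be told apart from less RNA in each of them. How many cultures went into a library is not given in the sources used here.

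Of the 36 entries, 30 had the status OK and 19 of these reached 1 RPKM. Among the 19, 6 were higher in Dnmt1-/- MEFs, 3 were lower and 10 stayed within 2-fold. Of all 11244 genes, 8.47% were higher and 10.9% lower, so the 31.6% of these members that were higher stood above the share of all genes, and the 15.8% that were lower, or 3 entries, stood near it. The median change of the 19 was 0.34. Lamb3 and Itgb2 passed the minimum of 1 RPKM only through Dnmt1-/-, and Itga8 and Itgb8 only through Dnmt1+/+, so those 4 had to differ to be compared. Where a mean of at least 1 RPKM was asked for instead, 4 of 16 members were higher and 2 lower, against 7.43% and 9.89% of all genes.

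**Figure D1:**
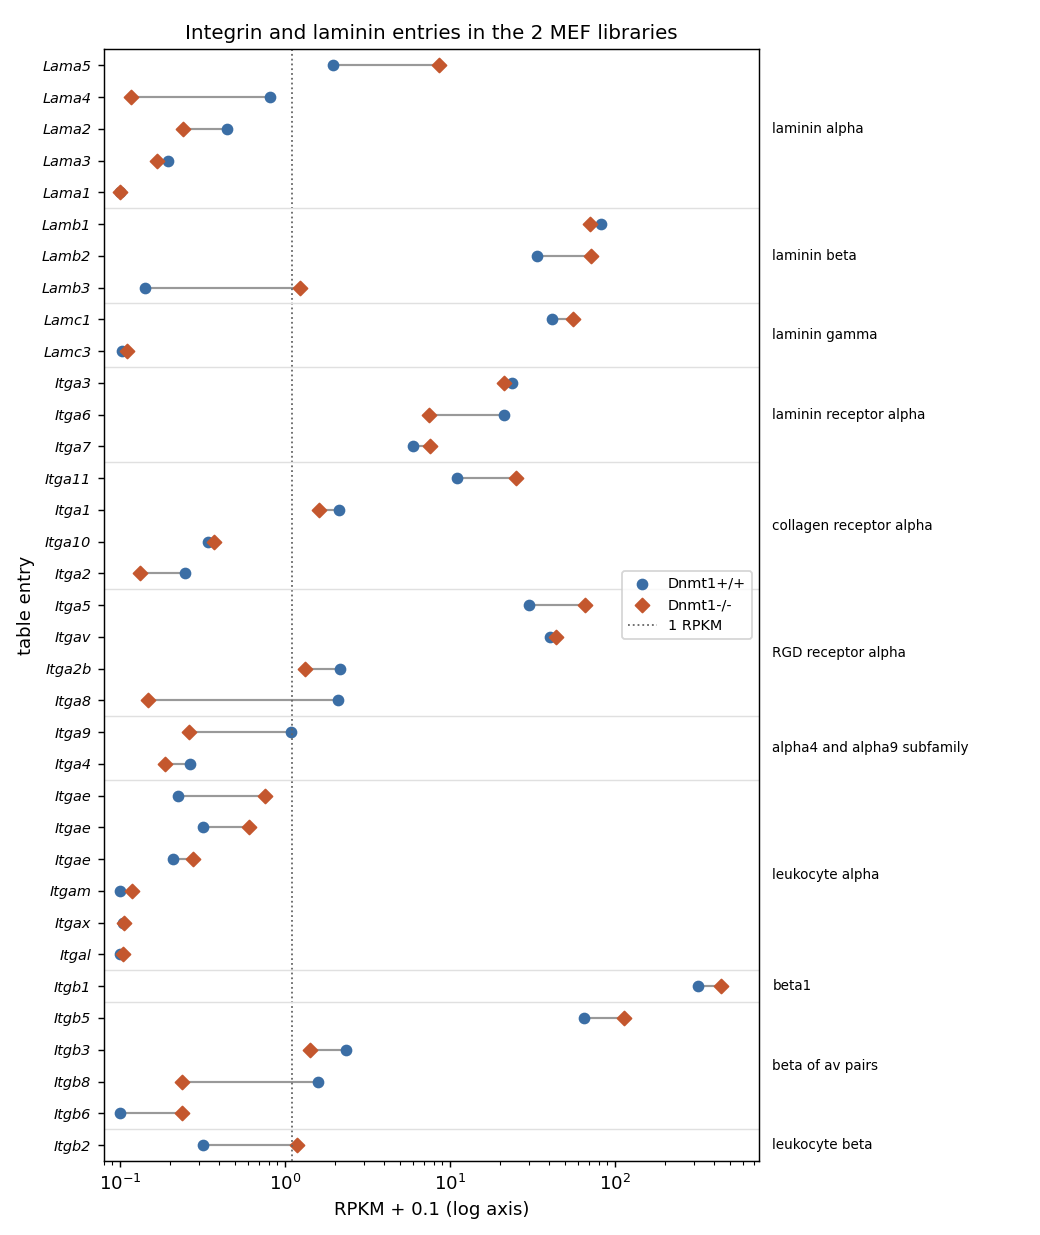
RPKM + 0.1 on a log axis for 35 entries (Itgb4, with status FAIL, is left out), by subunit class, with circles for the Dnmt1+/+ library, diamonds for the Dnmt1-/- library and a dotted line at 1 RPKM. Itgb1 is farthest to the right in both libraries, at 319.5 and 439.0 RPKM, and the longest lines belong to Itga8, Lamb3, Lama4 and Itgb8.

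The laminin chains did not share a direction. Of the 5 laminin entries that reached 1 RPKM, Lama5, Lamb2 and Lamb3 were higher in Dnmt1-/-, and Lamb1 and Lamc1 stayed within 2-fold. The median change of these 5 was 1.09, and that of the 14 integrins compared was -0.02, with 3 integrins higher and 3 lower. The difference between these medians rests on the minimum of 1 RPKM, which removes integrin entries and the laminin chains Lama4, Lama2 and Lama3. Their changes were -2.79 for Lama4, -0.88 for Lama2 and -0.22 for Lama3. Over all 8 laminin entries with status OK, 4 had the higher value in Dnmt1-/- and 4 in Dnmt1+/+, and the median change was 0.11, as it was over the 22 integrin entries with that status.

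Lama5, the laminin alpha chain of most mature basement membranes, lies on chromosome 2 of mm9 from 179911078 to 179960564. It had 1.85 RPKM in Dnmt1+/+ and 8.44 in Dnmt1-/-, a change of 2.13. It was the only alpha chain at 1 RPKM or more in either library, and the other alpha chains did not follow it. Lama4, known from vessels and mesenchyme, had 0.707 and 0.0166 RPKM. Lama2, the alpha chain of muscle and nerve sheaths, had 0.346 and 0.142. Lama3, the alpha chain of epithelial anchoring, had 0.0948 and 0.0677, and Lama1, of the early embryo, was listed at 0 in both. Lama5 thus made up 61.7% of the summed RPKM of the alpha chains in Dnmt1+/+ and 97.4% in Dnmt1-/-.

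Among beta chains, Lamb1, the widespread chain of embryonic tissue, had 81.9 RPKM in Dnmt1+/+ and 70.5 in Dnmt1-/-. Lamb2, known from the neuromuscular junction and the kidney filter, had 33.5 and 71.2 RPKM, a change of 1.09, and lies on chromosome 9 from 108382173 to 108392863. These changes brought the level of Lamb2 from well under that of Lamb1 to about the same, from 29.0% to 49.9% of the beta chain sum. Lamb3, a chain of epithelial laminin, lies on chromosome 1 from 195128188 to 195170072. It had 0.0420 RPKM in Dnmt1+/+ and 1.14 in Dnmt1-/-, a change of 3.13. This was the largest rise of the 19 members with a pseudocount of 0.1, but with a pseudocount of 1 its change was 1.04 and those of Lama5, Itga11, Itga5 and Lamb2 were larger.

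Lamc1, the gamma chain of most laminins, had 41.5 RPKM in Dnmt1+/+ and 55.9 in Dnmt1-/-, within 2-fold. Lamc3 had the status NOTEST, at 0.00268 and 0.00970 RPKM.

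Alpha and beta chains were far from equal in level. The beta chain sum, 115.4 RPKM in Dnmt1+/+ and 142.8 in Dnmt1-/-, was 38.5 and 16.5 times the alpha chain sum of 2.999 and 8.66 RPKM. Of 13 trimers of the laminin chains described here, 2 had all their chains at 1 RPKM or more, in both libraries, and both contain Lama5 and Lamc1, with Lamb1 or Lamb2. In both, Lama5 was the chain with the lowest RPKM. RNA levels do not measure which trimers or pairs the proteins form.

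**Figure D2:**
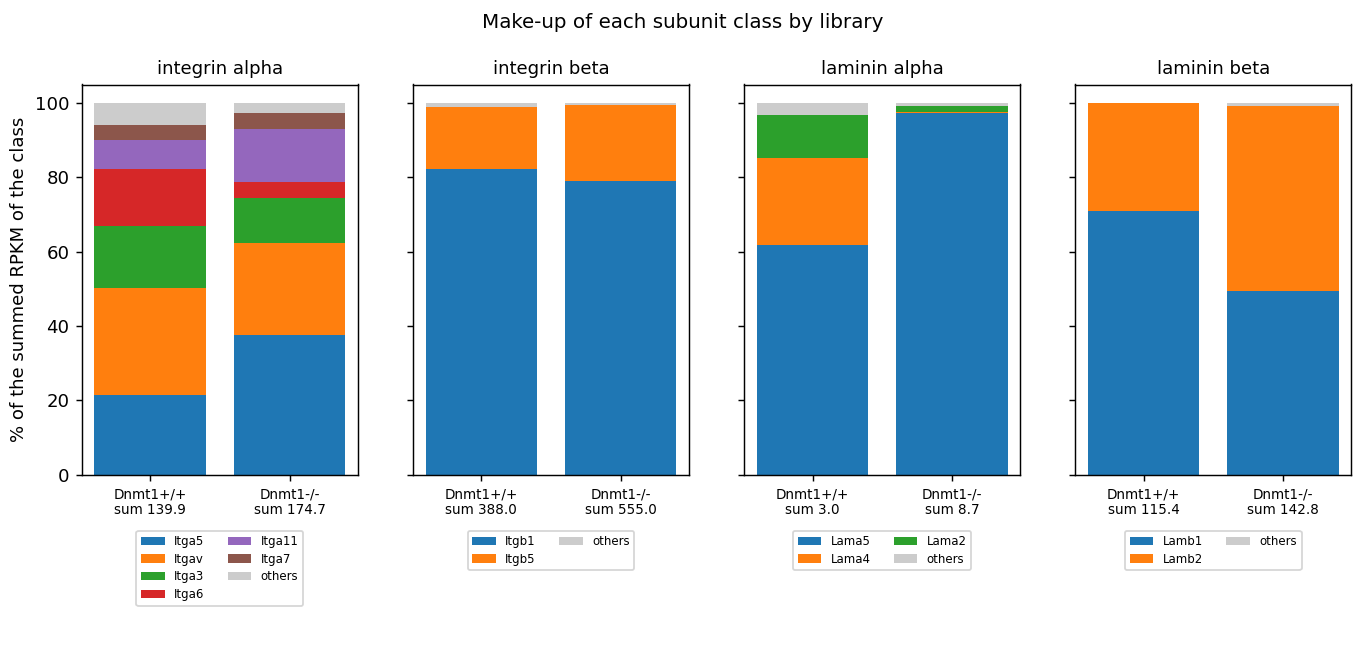
Share in percent of the summed RPKM of each subunit class taken by each gene, for the Dnmt1+/+ library (left bar) and the Dnmt1-/- library (right bar), with the summed RPKM under each bar and genes that never reach 4% pooled as others. Itga5 takes 21.4% of the integrin alpha sum in Dnmt1+/+ and 37.4% in Dnmt1-/-, and Lama5 fills most of the laminin alpha bar in Dnmt1-/-.

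Of the epithelial markers, 7 of 8 were found and their summed level was 0.363 RPKM in Dnmt1+/+ and 2.19 in Dnmt1-/-. The joint entry of the basal keratins Krt14 and Krt17 had 0.0349 and 1.46 RPKM and was the one that passed 1 RPKM. The simple epithelial keratins were also higher in Dnmt1-/-, with 0.0358 and 0.441 RPKM for Krt18 and with 0 and 0.216 for Krt8. The defining genes Cdh1 and Epcam were at 0.203 and 0.0466 RPKM in Dnmt1+/+ and at 0.0700 and 0.00921 in Dnmt1-/-, and Esrp1 was listed at 0 in both. Krt5 had 0.0425 RPKM in Dnmt1+/+ and was listed at 0 in Dnmt1-/-. The part of these markers in the change of Lamb3 was not tested.

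Among the integrin alpha subunits that bind laminin, Itga6 was lower, and the other two stayed within 2-fold. Itga6, the subunit of hemidesmosomes and of many stem cells, lies on chromosome 2 from 71625139 to 71696281. It had 21.2 RPKM in Dnmt1+/+ and 7.35 in Dnmt1-/-, a change of -1.52. Itga3, which pairs with Itgb1 at epithelial basement membranes, had 23.7 and 21.2 RPKM, and Itga7, the main laminin receptor of skeletal muscle, had 5.88 and 7.47. The sum of the 3 was 50.8 RPKM in Dnmt1+/+ and 36.0 in Dnmt1-/-, a difference within 2-fold.

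The collagen receptor subunit Itga11, which is typical of fibroblasts and binds fibrillar collagen, lies on chromosome 9 from 62525648 to 62631786. Its level was 10.9 RPKM in Dnmt1+/+ and 25.1 in Dnmt1-/-, a change of 1.19. Itga1, a collagen IV receptor subunit, had 2.03 and 1.4996 RPKM, and its value is uncertain because Pelo lies within the gene on the same strand. Its neighbour Itga2, at 26.0 kb, had 0.147 and 0.0317 RPKM. Itga10, the cartilage collagen receptor subunit, had 0.244 and 0.270 RPKM, and its value is also uncertain. Of the 4 collagen receptor subunits Itga11 was the one called, and it dominated their sum of 13.3 and 26.9 RPKM.

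The subunits that bind the tripeptide RGD of fibronectin, vitronectin and other ligands went in different directions. Itga5, the classical fibronectin receptor subunit, on chromosome 15 from 103174718 to 103197179, had 29.98 RPKM in Dnmt1+/+ and 65.4 in Dnmt1-/-, a change of 1.12. Itgav, which pairs with several beta subunits, had 40.1 and 43.6 RPKM. Itga5 was thus below Itgav in Dnmt1+/+ and had the highest RPKM of all alpha subunits in Dnmt1-/-.

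Itga8, which binds nephronectin and is needed for kidney formation, showed the largest fall of the 19 members. It lies on chromosome 2 from 12028287 to 12223547 and had 2.01 RPKM in Dnmt1+/+ and 0.0487 in Dnmt1-/-, a change of -3.83. Its ligand Npnt, chosen here after the values were seen, had 8.09 and 33.4 RPKM, a change of 2.03, in the other direction. Itga2b, the platelet subunit, had 2.07 RPKM in Dnmt1+/+ and 1.23 in Dnmt1-/-, and its partner Itgb3 had 2.24 and 1.31. Both were within 2-fold, with changes of -0.71 and -0.73.

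The beta subunits were led by Itgb1, the partner of most alpha subunits, with 319.5 RPKM in Dnmt1+/+ and 439.0 in Dnmt1-/-. These levels were above those of 98.7% and 99.2% of all genes compared. The change of 0.46 stayed within 2-fold, and Itgb1 was 2.28 and 2.51 times the sum of all integrin alpha entries, so its RNA was in excess of theirs in both libraries. Itgb5, a vitronectin receptor subunit that pairs with Itgav, had 64.6 and 113.3 RPKM, a change of 0.81.

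Itgb8, the subunit with which Itgav activates latent TGF-beta, lies on chromosome 12 from 120401276 to 120477284. Its level was 1.49 RPKM in Dnmt1+/+ and 0.136 in Dnmt1-/-, a change of -2.75. Itgb6, an epithelial subunit with the same function, was listed at 0 and at 0.136 RPKM. Itgb4, the hemidesmosome partner of Itga6, had the status FAIL and no usable value.

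Itgb2, the beta subunit of leukocyte integrins, lies on chromosome 10 from 76993093 to 77028419 and had 0.218 RPKM in Dnmt1+/+ and 1.09 in Dnmt1-/-, a change of 1.90. This call is lost with a pseudocount of 1, where the change is 0.78. The members Itgal, Itgam and Itgax, leukocyte alpha subunits that pair with it, were near 0, with at most 0.0186 RPKM. Itgad, a further alpha subunit that is not among the members, had 0 RPKM in Dnmt1+/+ and 0.0875 in Dnmt1-/-. Of the 8 leukocyte markers, all of which were found, 3 reached 1 RPKM in Dnmt1-/- and none in Dnmt1+/+. Csf1r had 0.0702 RPKM in Dnmt1+/+ and 6.08 in Dnmt1-/-, Cd68 had 0.596 and 3.63, and Cd53 had 0.0768 and 1.08. Their summed level over the list was 0.924 and 11.2 RPKM, and the list includes the member Itgam. Of the other genes of the list, Coro1a had 0.0877 RPKM in Dnmt1+/+ and 0.310 in Dnmt1-/-. Lcp1 had 0.0934 and 0.0512, and Ptprc and Laptm5 were listed at 0 in both libraries. The part of these markers in the change of Itgb2 was not tested.

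**Figure D3:**
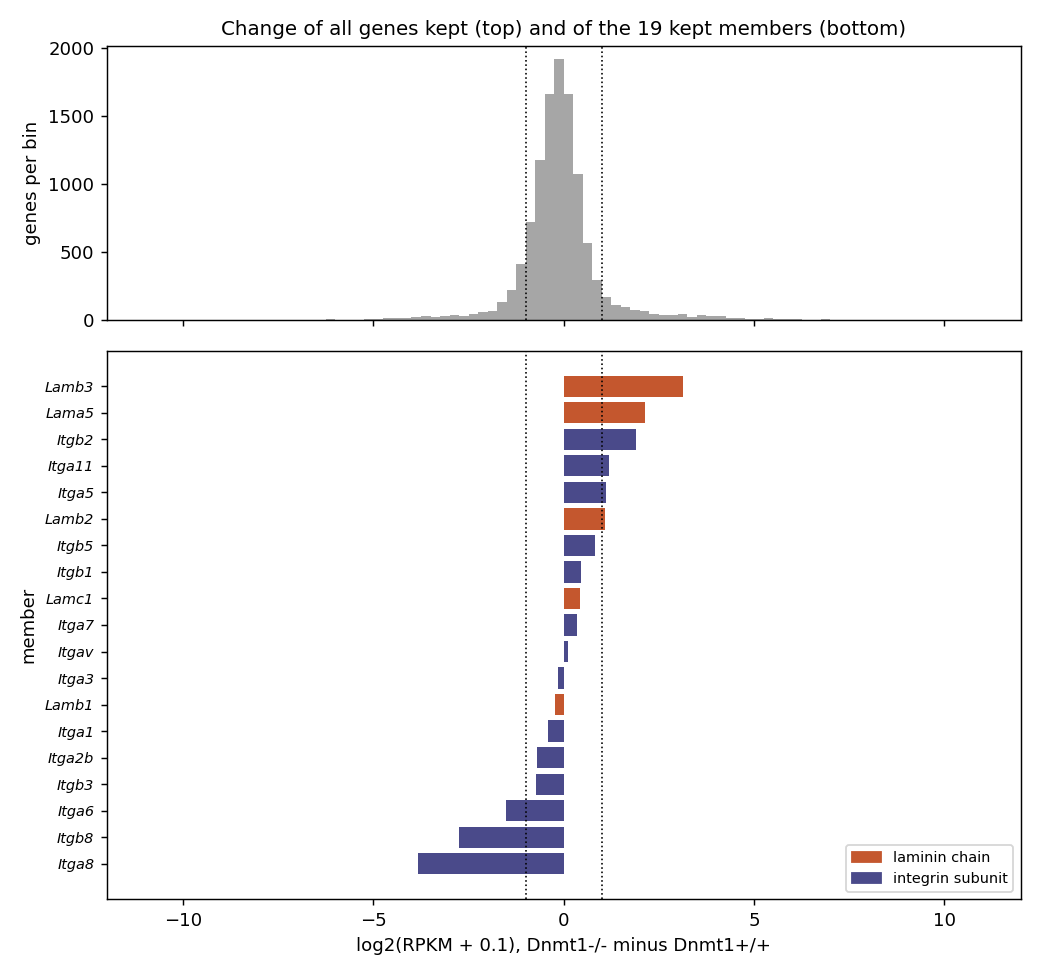
Change in log2(RPKM + 0.1), Dnmt1-/- minus Dnmt1+/+, as a histogram of the 11244 genes compared (top) and as bars for the 19 members (bottom), with dotted lines at 2-fold. The 6 bars beyond the right line include 3 laminin chains, and the 3 beyond the left line are Itga6, Itgb8 and Itga8.

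A further 11 entries with status OK stayed under 1 RPKM in both libraries, at 0.987 RPKM or less, and are given as values only. Of these, 5 were higher in Dnmt1-/- and 6 lower. The highest was Itga9, a subunit that binds tenascin C, with 0.987 RPKM in Dnmt1+/+ and 0.162 in Dnmt1-/-. Its relative Itga4 had 0.167 and 0.0886 RPKM and overlaps Cerkl on the other strand. Itgae has 3 entries with the same coordinates, between 0.109 and 0.218 RPKM in Dnmt1+/+ and between 0.177 and 0.659 in Dnmt1-/-, and Gsg2 lies within it on the other strand, so these values are uncertain. The 5 entries with status NOTEST had at most 0.0186 RPKM. Of the 19 members compared, Itga7 and Lamb1 also overlap a gene on the other strand, Mettl7b and Gm11053.

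Of 23 known integrin pairs, 20 had a value for both subunits. Both subunits reached 1 RPKM in both libraries for 10 pairs, and in neither library for 8. The other 2 pairs, Itga8 with Itgb1 and Itgav with Itgb8, did so in Dnmt1+/+ alone, and 0 pairs in Dnmt1-/- alone. In 9 of the 10 pairs the alpha subunit had the lower RPKM in both libraries, and Itgav with Itgb3 was the exception.

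The design concerns DNA methylation, which in mammals is found at CpG sites, so the number of CpGs just before the start of each gene was counted. The windows were the 250 bases before each RefSeq start (GRCm38.p6), for 22 of the 34 symbols, and the motif searched was CG, which reads the same on both strands. Over 32851 windows of all genes the median was 6 CpGs. Below are the windows of 3 members that bear on the comparison of rise, fall and CpG content, in the 5′ to 3′ direction of the gene, with each CpG in capitals. Itga8 is shown as the largest fall, Lama5 as a rise from a window dense in CpGs, and Lamb2 as a rise from a window poor in them. They lie at chr2:12301945-12302194 on the minus strand, chr2:180225860-180226109 on the minus strand and chr9:108479612-108479861 on the plus strand.
Itga8: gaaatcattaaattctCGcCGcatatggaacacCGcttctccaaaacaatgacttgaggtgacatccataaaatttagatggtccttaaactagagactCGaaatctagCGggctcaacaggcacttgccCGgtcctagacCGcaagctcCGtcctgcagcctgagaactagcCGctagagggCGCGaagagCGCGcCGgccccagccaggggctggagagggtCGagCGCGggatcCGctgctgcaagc
Lama5: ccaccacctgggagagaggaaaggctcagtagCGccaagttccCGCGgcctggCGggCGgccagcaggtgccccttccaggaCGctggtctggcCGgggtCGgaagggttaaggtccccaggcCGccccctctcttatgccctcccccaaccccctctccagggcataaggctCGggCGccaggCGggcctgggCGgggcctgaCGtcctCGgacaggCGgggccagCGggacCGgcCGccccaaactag
Lamb2: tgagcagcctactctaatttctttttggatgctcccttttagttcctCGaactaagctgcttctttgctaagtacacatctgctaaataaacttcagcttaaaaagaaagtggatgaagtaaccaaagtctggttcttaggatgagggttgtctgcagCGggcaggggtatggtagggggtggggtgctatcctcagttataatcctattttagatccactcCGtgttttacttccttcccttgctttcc

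Itga8 holds 18 CpGs in this window, Lama5 holds 19 and Lamb2 holds 3, and 21.7%, 19.7% and 71% of all windows hold as many or more. Of the 19 members compared 14 had a window, among them 2 of the 3 that were lower, as Itga6 had none. With so few, a split by direction could not be judged. Counting the richest window of each of the 14, the 5 that were higher held 3 to 19 CpGs, the 2 that were lower held 12 to 18, and the 7 within 2-fold held 2 to 22. Counts of CpGs do not measure methylation, which was not analysed here.

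The genes around the members were described by 2 lists, of which the first holds the adaptors, kinases and actin linkers of integrin adhesions. Of its 60 symbols 58 were found and 51 entries were compared, with 9 higher and 4 lower in Dnmt1-/- and a median change of 0.28. As shares these are 17.6% and 7.84%, against 8.47% and 10.9% of all genes. Tns1, a tensin that links integrin tails to actin, had 7.19 RPKM in Dnmt1+/+ and 35.9 in Dnmt1-/-. Ptk2b, a kinase related to focal adhesion kinase, had 6.99 and 28.8, and Lims2, a partner of integrin-linked kinase, had 0.137 and 1.15. In the other direction Kank1, which binds talin, had 10.98 and 3.87 RPKM, Nedd9, an adhesion scaffold, had 15.3 and 6.73, and Itgb3bp, known also as a centromere protein, had 1.70 and 0.640. Lims2 passed the minimum of 1 RPKM only through Dnmt1-/-, and Itgb3bp only through Dnmt1+/+. With a pseudocount of 1, 11 entries of the list passed 2-fold in either direction, against 13 with 0.1. Of all genes, 14.1% and 19.4% did so. The genes with the highest RPKM, Flna and Cav1, stayed within 2-fold, at 529.9 and 527.0 RPKM for the actin linker Flna and at 421.4 and 353.4 for the caveolin Cav1.

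The second list holds basement membrane proteins and integrin ligands. Of its 50 symbols 47 were found and 31 entries were compared, with 7 higher and 8 lower, or 22.6% and 25.8%, and a median change of 0.15. Both shares stood above those of all genes. Of the lower entries, Col4a6 and Edil3, the latter with 4.80 RPKM in Dnmt1+/+ and 0.780 in Dnmt1-/-, passed the minimum of 1 RPKM only through Dnmt1+/+. Thbs1, thrombospondin, had 65.4 RPKM in Dnmt1+/+ and 1034 in Dnmt1-/-, the largest rise of the list. Cyr61, a matricellular ligand of Itgav, had 113.9 and 709.0, and Sgce, a sarcoglycan of the dystroglycan complex, had 11.6 and 51.9. Col4a6, a collagen IV chain, had 13.004 and 0.0612 RPKM, Postn, periostin, had 176.6 and 13.7, and Fbln1, a fibulin, had 56.3 and 7.43. Fn1, the ligand of the pair of Itga5 and Itgb1, had 663.7 and 235.5 RPKM, a change of -1.49, and so was lower in the library in which Itga5 was higher.

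**Figure D4:**
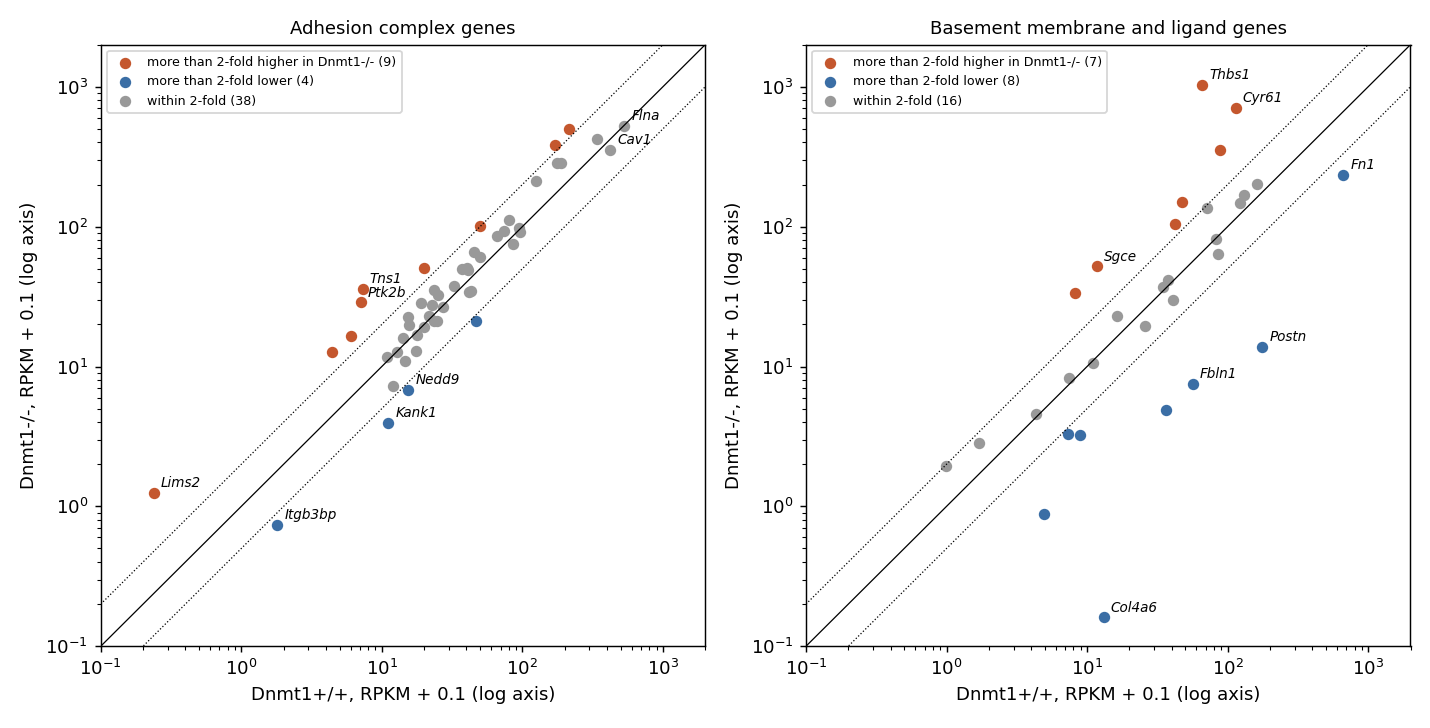
RPKM + 0.1 in the Dnmt1+/+ library (horizontal, log axis) and in the Dnmt1-/- library (vertical, log axis) for the 51 adhesion complex entries (left) and the 31 basement membrane and ligand entries (right) that were compared, with a solid line at equality and dotted lines at 2-fold. Most adhesion complex entries lie between the dotted lines, while Thbs1 and Cyr61 lie far above and Col4a6 and Postn far below in the right panel.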

How the data were processed

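RNA from 1 library of each genotype was sequenced by the authors as 50 bp single-end reads with strand kept. Mapping to mm9 was done with TopHat and assembly with Cufflinks, and the authors deposited the RPKM values of Cuffdiff with a status for each entry. Tool versions, further scaling between libraries and the use of strand in assigning reads are not given in the sources used here. The study gives the mapped reads of each library, but whole reads of an entry could not be recovered from the RPKM values. The number of reads behind each value is therefore unknown and no counting error is given. The columns named wt and ko were taken as Dnmt1+/+ and Dnmt1-/-, as the study defines these words.

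Differences of log2(RPKM + 0.1) were computed for entries with status OK, a gene symbol and at least 1 RPKM in either library, with no test. Starts of entries were written 1-based. Overlapping genes came from the GENCODE annotation of NCBI37 (mm9) and windows from RefSeq. Of the entries found by the rule, 1 is not reported here. The members and lists were chosen with earlier results of these data known. Members that reached 1 RPKM were named, and from the adhesion and ligand lists the 3 largest rises, the 3 largest falls and the 2 highest mean levels. Of symbols that the patterns pass over, Itgad had 0 and 0.0875 RPKM in Dnmt1+/+ and Dnmt1-/-, and Itgb2l was at 0 in both. Endothelial markers summed to 0.512 RPKM in Dnmt1+/+ and 0.711 in Dnmt1-/-, skeletal muscle markers to 29.3 and 46.3, mostly from Acta1 (28.8 and 42.8), and Schwann cell and neural markers to 18.5 and 13.5, mostly from Tubb3 (16.9 and 12.9). Of the muscle markers Myf5 had 0.106 and 3.28 RPKM and Des 0.318 and 0.0780. Alternatives were a pseudocount of 1 or 0.01, no filter, a mean of at least 1 RPKM, subtraction of the median change of all or of 24 ubiquitous genes, 1.5-fold, and every status. The call step was tested on simulated data with set changes and no noise, which checks its arithmetic and not calls on noisy or low values. Python 3.11.15, numpy 2.4.6, pandas 2.3.3 and matplotlib 3.10.9 were used.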

Additional observations from a re-analysis of the deposited data

How the results depend on the processing

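Without a filter on low RPKM, 30 members were compared, 5 of them lower (16.7%, against 11.6% of all genes), and their median change was 0.11, since members under 1 RPKM then enter. With a threshold of 1.5-fold, 5 members were lower, or 26.3% against 23.7% of all genes. Subtracting the median change of all genes raised the members' median to 0.48, and asking for a mean of at least 1 RPKM lowered it to 0.23 and removed Lamb3, Itgb2 and Itgb8 from the comparison, so that these calls were lost. The number of higher members lay between 4 and 8 under the 8 alternatives, and that of lower members between 2 and 5, of 16 to 30 members compared. Without the filter 26.7% were higher, against 10.3% of all genes, and at 1.5-fold 36.8% against 14.1%. With a pseudocount of 1, 26.3% were higher and 15.8% lower, against 6.96% and 7.12%. With a mean of at least 1 RPKM, these were 25% and 12.5%, against 7.43% and 9.89%. Among named members still compared, Itgb2 lost its call, with a change of 0.78 at a pseudocount of 1, and no named member that was called changed direction. No paired analysis was possible because there is 1 library per genotype, and no library could be left out. The number of reads behind values under 1 RPKM is not known, and it depends on the length of the transcript.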

Other observations

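Matrix receptors other than integrins were listed after the table had been opened. All 15 symbols were found, in 16 entries as Cd44 has 2, and all reached 1 RPKM. In Dnmt1-/-, 2 of the 16 entries rose past 2-fold, or 12.5% against 8.47% of all genes. None fell past it, against 10.9% of all genes, and with 16 entries neither share could be judged. Cspg4, the NG2 proteoglycan, had 4.35 RPKM in Dnmt1+/+ and 10.9 in Dnmt1-/-, and Gpc1, a glypican, had 20.6 and 50.3. The hyaluronan receptor Cd44 had 88.6 and 99.3 RPKM in one entry and 38.1 and 74.7 in the other. The collagen receptor kinases Ddr1 and Ddr2, which bind collagen as Itga11 does, stayed within 2-fold, at 24.5 and 41.3 RPKM for Ddr1 and at 49.0 and 44.9 for Ddr2. Rpsa, a ribosomal protein also known as a laminin receptor, had the highest level, at 580.8 and 295.0 RPKM, a change of -0.98. It has many processed pseudogenes with which reads could be shared, so its value is uncertain.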
